A study of Mus musculus with 2 samples.

Results

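The Schlafen genes are a family that arose by tandem duplication and is known chiefly from immune cells. Members were taken as the rows of the deposited table named Slfn1, Slfn2, Slfn3, Slfn4, Slfn5, Slfn8 or Slfn9, which gave 7 of 20722 gene symbols, each with 1 row. They were proposed as a group because Slfn4 stood out between the same 2 libraries that are compared here, so their values below are a description of these libraries and were not tested here. RNA was taken from villi isolated from the small intestine of C57BL/6 mice. Both animals had received 3 tamoxifen injections and were killed 6 days after injection. The control library was Rosa26-CreERT2 Cdkn2a-/-, and the other was Rosa26-CreERT2 Cdkn2a-/- Ring1a-/- Ring1bf/f (dKO, double knockout). Ring1a and Ring1b are the catalytic subunits of Polycomb repressive complex 1, a chromatin repressor. Cre from the Rosa26 locus is active in many cell types and not in the epithelium alone, and both animals lacked Cdkn2a. There was 1 library per genotype, so no value below has a replicate check.

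Schlafen proteins share an N-terminal domain with a divergent ATP-binding motif, and some family members cleave transfer RNA. In rodents the short members Slfn1 and Slfn2 have been studied as regulators of T cell growth and quiescence, Slfn3 in the differentiation of intestinal epithelial cells, and Slfn4 in macrophages, where interferon and microbial ligands induce it. Slfn5, Slfn8 and Slfn9 are long members with a helicase-like C-terminal part. Several members are interferon-stimulated genes, which is why interferon genes and leukocyte markers are set beside them below.

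Depth was low. The control library held 775827 recovered reads and the dKO-labelled library 1058196. Intervals given below are exact 95% counting intervals, which cover counting error only. The targeted genes Ring1 (10 reads in each library) and Rnf2, which encodes Ring1b (59 and 82 reads), were not lower in the dKO-labelled library beyond counting error, and whole-transcript counts do not show a deleted exon. Cdkn2a, absent by genotype in both, had 0 and 1 reads. The library is therefore named by its label throughout. Xist had 80 and 1 reads and the Y-linked gene Ddx3y 0 and 131, so that sex and genotype cannot be told apart. A gene was called measured at a mean normalised count of at least 20, which 6001 genes and 3 of the 7 Schlafen genes (Slfn2, Slfn4 and Slfn5) reached.

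The members form 1 cluster on chromosome 11, and their sequence relations bear on how reads can be assigned. In GENCODE M21 the coding sequence was 1011 bases long in Slfn1, 1134 in Slfn2, 1551 in Slfn3, 1806 in Slfn4, 2652 in Slfn5 and 2730 in both Slfn8 and Slfn9. The closest pair was Slfn3 and Slfn4, whose coding sequences were identical at 95.3% of 1521 aligned bases, followed by Slfn8 and Slfn9 at 92.7% of 2730. The next pair, Slfn2 and Slfn3, was identical at 75.9% of 926 aligned bases. Of all 50-base stretches of the Slfn4 transcript, 11.6% also occur in a transcript of another gene, and 6.45% of all its stretches occur in Slfn3. For Slfn3 the share was 23.7%, with 14.3% in Slfn4. It was 15.4% for Slfn8, 11.9% for Slfn9, 11.8% for Slfn5, 4.27% for Slfn2 and 0.606% for Slfn1. These shares count exact matches of 50 bases only, and the read length and allowed mismatches were not used here. They therefore do not measure how many reads fit several genes. The split of reads among members is uncertain, since how the authors treated such reads is not given in the sources used here. Slfn5 shared 7.88% with Slfn5os, an overlapping gene on the opposite strand, and without strand information reads of this pair cannot be told apart (Slfn5os was listed at 0 reads in both libraries).

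The sequences upstream of the transcription starts are shown so that Slfn4 can be compared with the other members. Of these, only Slfn2 and Slfn5 had enough reads for their difference to be set against that of Slfn4. Sequences are from RefSeq (build GRCm38.p6, which is not the mm9 build of the deposited table), 5′ to 3′ along the gene. The 250 bases before the start of Slfn4, the member with the largest difference, are shown whole. Capitals mark ACTTCCTGG, the longest run that the upstream windows of Slfn1, Slfn2, Slfn3 and Slfn4 have in common:
Slfn4 (chr11:83174936-83175185, plus strand): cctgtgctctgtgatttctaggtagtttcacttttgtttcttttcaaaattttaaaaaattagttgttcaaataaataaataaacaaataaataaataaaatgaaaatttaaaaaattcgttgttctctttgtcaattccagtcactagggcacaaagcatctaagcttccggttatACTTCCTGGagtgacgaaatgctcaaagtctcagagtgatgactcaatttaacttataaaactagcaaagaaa
The same run is marked in the other short and intermediate members, shown with 30 bases on each side to let the flanks be compared:
Slfn1 (chr11:83116716-83116784, plus strand): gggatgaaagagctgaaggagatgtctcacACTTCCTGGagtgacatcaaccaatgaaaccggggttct
Slfn2 (chr11:83065027-83065095, plus strand): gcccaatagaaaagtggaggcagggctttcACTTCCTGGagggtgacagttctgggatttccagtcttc
Slfn3 (chr11:83191258-83191326, plus strand): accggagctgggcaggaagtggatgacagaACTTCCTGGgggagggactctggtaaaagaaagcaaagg
In the long members, capitals mark a match to GAAANNGAA, the core of the interferon-stimulated response element, on either strand (in Slfn5 a second match, TTCTCTTTC on the opposite strand, 132 bases before the start, stands in lower case within the stretch):
Slfn5 (chr11:82951917-82951985, plus strand): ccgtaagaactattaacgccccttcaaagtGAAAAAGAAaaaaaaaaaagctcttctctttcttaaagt
Slfn8 (chr11:83020819-83020887, minus strand): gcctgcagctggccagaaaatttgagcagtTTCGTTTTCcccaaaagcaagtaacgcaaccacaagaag
Slfn9 (chr11:82991836-82991904, minus strand): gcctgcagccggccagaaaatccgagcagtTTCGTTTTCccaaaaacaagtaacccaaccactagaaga

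The shared run lay 73 bases before the start in Slfn4, 74 in Slfn1, 55 in Slfn2 and 42 in Slfn3, always on the same strand. It was longer between some members: Slfn1, Slfn2 and Slfn4 shared ACTTCCTGGAG, and Slfn1 and Slfn4 shared the 15 bases ACTTCCTGGAGTGAC. Searched on both strands, ACTTCCTGG was found in 4 of 7 Schlafen windows and in 230 of 32851 windows of the same length over all genes (0.700%). It was chosen from these 4 genes, so that its presence there is fixed by the choice. Slfn3 also shared a run of 9 bases with Slfn8. Aligned in pairs, the windows did not group by this run. Slfn8 and Slfn9 were identical at 85.1% of 242 aligned bases and Slfn1 and Slfn2 at 69.8% of 179. Slfn4 reached 52.3% to 65.0% with the other members. The highest value, with Slfn9, covers only 123 aligned bases, the shortest alignment of any pair, and their longest shared run was 6 bases. The next highest for Slfn4 was 58.1% of 186 aligned bases, with Slfn3. The interferon core GAAANNGAA was found in Slfn5, Slfn8 and Slfn9, and in 7.13% of all windows. It was not found in the window of Slfn4 or Slfn2, which says only that these letters are absent from these 250 bases. TTCNNNGAA, the gamma-activated site, reads the same on both strands and was found in 0 of 7 Schlafen windows and in 7.02% of all windows. The Slfn4 window was also poor in G and C: they made up 29.6% of its bases, against 48.0% to 52.0% in the other members and a median of 52.4% over all windows, of which 1.47% were as poor or poorer. No binding or chromatin mark was measured here, and a match of letters is a description.

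Slfn4, a member of intermediate length, held the largest difference. It had 390 reads in the control library (352 to 431) and 12 in the dKO-labelled library (6.20 to 21.0), and the counting intervals are far apart. After scaling by the deposited size factors it was 36.1-fold lower in the dKO-labelled library (20.4 to 70.4). On the scale of log2((dKO + 1)/(control + 1)) of normalised counts the difference was -4.95, the lowest of all 6001 measured genes. In bulk tissue, fewer cells that express a gene and less RNA per cell cannot be told apart. In the authors' deposited table Slfn4 had a fold of 0.0300 and an unadjusted p of 0.0013, and after Benjamini-Hochberg adjustment over all rows of that DESeq column the adjusted p was 1. Of all rows in the authors' deposited table, 0.0862% were lower at an unadjusted p under 0.05 and 0.472% higher. Among them was 1 of the 7 members, Slfn4.

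**Figure D1:**
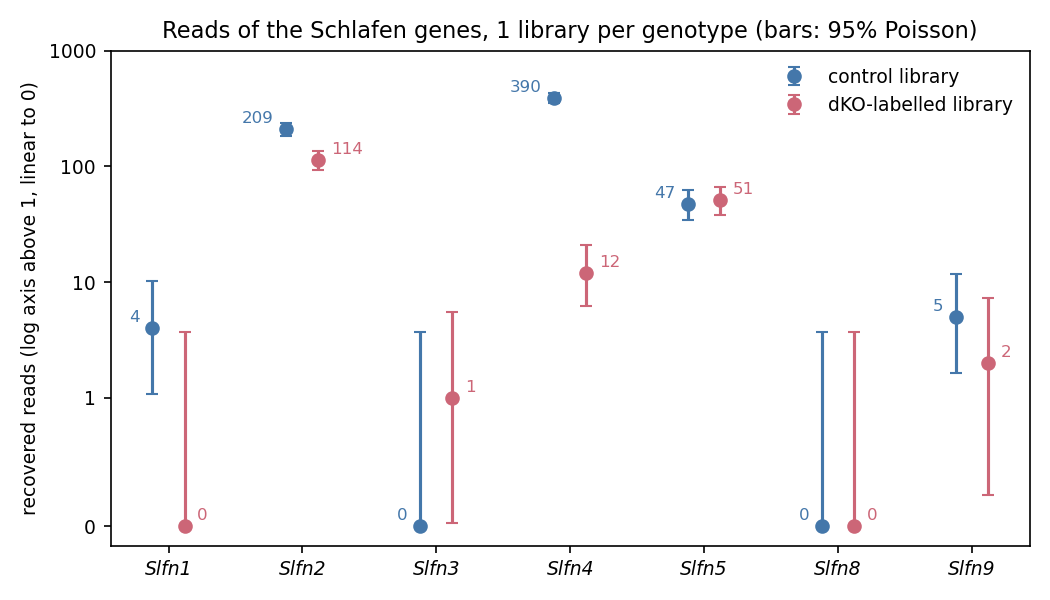
Recovered reads of the 7 Schlafen genes in the control library (blue) and the dKO-labelled library (red), with 95% Poisson intervals, on an axis that is logarithmic above 1 and linear below. Slfn4 goes from 390 to 12 reads and Slfn2 from 209 to 114, Slfn5 has 47 and 51, and the other 4 genes have at most 5 reads in either library.

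Slfn2, a short member linked to quiescence of T cells and monocytes, was lower too, but far less so. It had 209 reads in the control library (182 to 239) and 114 in the dKO-labelled library (94.0 to 137), with no overlap of the intervals. The scaled difference was 2.03-fold (1.61 to 2.58), or -1.01 on the log2 scale, so that its call at 2-fold sits on the threshold. Slfn5, a long member, had 47 reads in the control (34.5 to 62.5) and 51 in the dKO-labelled library (37.97 to 67.1). Its intervals overlapped almost fully, and the scaled ratio was 0.978 (0.645 to 1.49). The median log2 ratio of all measured genes was 0.51, so relative to it Slfn4 lay at -5.46, Slfn2 at -1.52 and Slfn5 at -0.54. Of all measured genes, 4.05% had a log2 ratio at or below that of Slfn2 and 23.5% at or below that of Slfn5.

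Of the 3 measured Schlafen genes, Slfn4 and Slfn2 were thus at least 2-fold lower and 0 were at least 2-fold higher. Among all measured genes 4.18% were called lower and 26.2% higher by the same rule, and the members were chosen on this comparison, so nothing is read from their count. The median log2 ratio of the 3 was -1.01, which is the value of Slfn2. When the rule asked that the whole counting interval lie beyond 2-fold, which 1.73% of measured genes met in the lower and 10.4% in the higher direction, 1 of the 3 (Slfn4) was called lower and 0 higher. This rule was chosen after the values were seen.

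**Figure D2:**
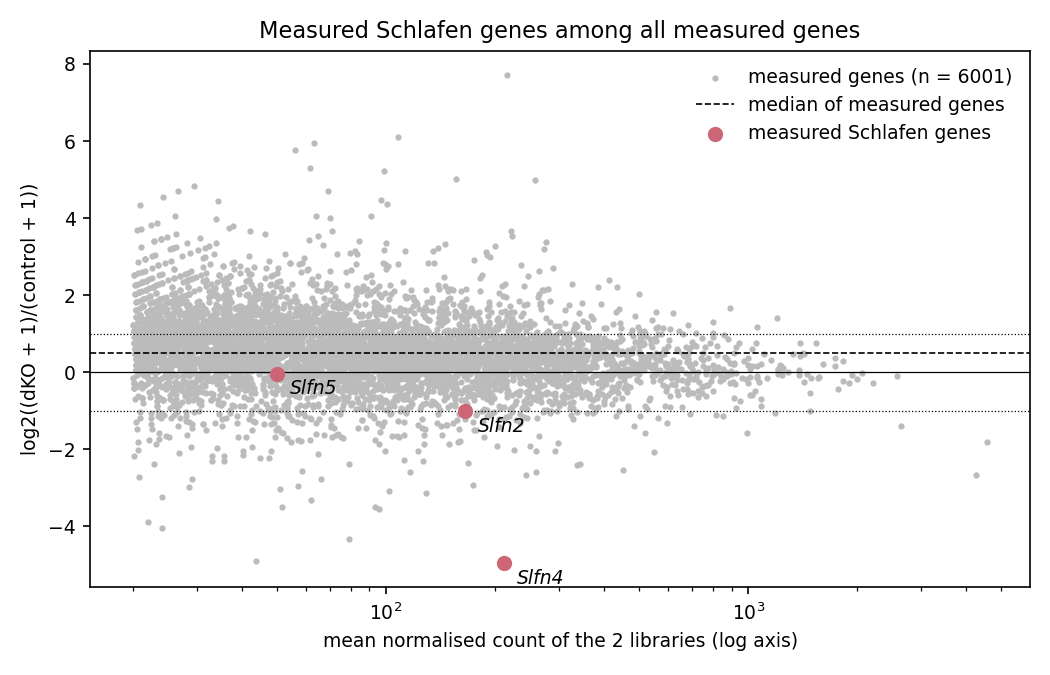
Difference between the libraries, log2((dKO + 1)/(control + 1)), against the mean normalised count (log axis) for 6001 measured genes (grey) and the 3 measured Schlafen genes (red). The dashed line is the median of 0.51 and dotted lines mark 2-fold. Slfn4 at -4.95 is the lowest point, Slfn2 lies on the lower 2-fold line at -1.01 and Slfn5 near 0.

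The remaining 4 members were at the limit of detection. Slfn1, a short member, had 4 reads in the control library and 0 in the dKO-labelled one, where the scaled ratio could be up to 1.37. Slfn9, a long member, had 5 and 2 reads, a ratio of 0.361 (0.0343 to 2.20). Slfn3, the member studied in the gut epithelium, had 0 and 1 reads, and Slfn8 was listed at 0 in both. Together these 4 genes had 9 control and 3 dKO-labelled reads, a ratio of 0.300 (0.0523 to 1.20), so a difference was not detectable at this depth. By the exact interval a count of 0 allows up to 3.69 reads, which in RPKM (reads scaled by transcript length and library total) is 2.62 for Slfn3 and 1.19 for Slfn8 in the control library. A listed 0 may also be a failed count, since genes that most cells use, such as Ap2b1 (1 and 0 reads) and Irf9 (0 and 0), were listed as low. Of the other Schlafen genes with a row, the pseudogene Slfn10-ps had 1 and 0 reads, and Slfn14 and Slfnl1 had 0 in both.

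Summed over the 7 members, the family had 655 control and 180 dKO-labelled reads, 4.04-fold lower (3.42 to 4.79). This sum does not depend on how counted reads were split among members. It does depend on how reads that fit several genes were treated, as members also share 50-base stretches with genes outside the 7. Gm11427 held 12.5% of the stretches of Slfn3 and 4.12% of those of Slfn4. Slfn10-ps held 10.7% of those of Slfn8 and 8.44% of those of Slfn9. Without Slfn4 it was 265 and 168 reads, 1.75-fold lower (1.44 to 2.14), so most of the family's difference was carried by 1 gene. Slfn4 gave 59.5% of the family's reads in the control (55.7% to 63.3%) and 6.67% in the dKO-labelled library (3.49% to 11.4%). Slfn2 went from 31.9% (28.4% to 35.6%) to 63.3% (55.8% to 70.4%) and Slfn5 from 7.18% to 28.3%.

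The order of levels changed with this. In RPKM, Slfn2 stood at 162 in the control library (141 to 185) and Slfn4 at 127 (115 to 140), and the intervals of these neighbours only just fail to overlap. Slfn5 followed at 10.1 (7.44 to 13.5), and Slfn1 (2.77) and Slfn9 (1.12) overlapped each other. In the dKO-labelled library Slfn2 stood at 64.7 (53.4 to 77.8), Slfn5 at 8.06 (6.00 to 10.6) and Slfn4 at 2.87 (1.48 to 5.005), none of which overlapped. By this level Slfn4 was above 95.5% of 19930 genes in the control library and above 58.9% in the dKO-labelled library. The corresponding shares were 96.4% and 90.9% for Slfn2, and 76.0% and 70.2% for Slfn5.

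None of the few measured genes beside the cluster was as low as Slfn4. Compared were the 10 coding genes with a row on each side of the outermost members in RefSeq order. They include Slfn14, a Schlafen gene outside the 7, which follows Slfn3 and had 0 reads in both libraries. Of all these neighbours only 6 were measured, and the others lay under the minimum mean. Of the 6, 0 were at least 2-fold lower and 1 was higher (4.18% and 26.2% of all measured genes), so nothing is read from these counts. Their median log2 ratio was 0.50, against 0.51 for all measured genes. With upper-quartile scaling 1 was lower and the median -0.18. The chemokine gene Ccl5 had 15 and 58 reads (3.49-fold higher, 1.95 to 6.62). It is also in the list of T cell markers below, and the part of cell content in its value was not tested. Taf15, which encodes an RNA-binding protein, had 165 and 297 reads (1.62-fold, 1.34 to 1.97). The DNA ligase gene Lig3 had 16 and 27 reads and the chemokine gene Ccl9 59 and 90, with intervals that include equal levels. Within the cluster the measured members alternated with members near 0: the order along the chromosome is Slfn5, Slfn9, Slfn8, Slfn2, Slfn1, Slfn4, Slfn3.

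**Figure D3:**
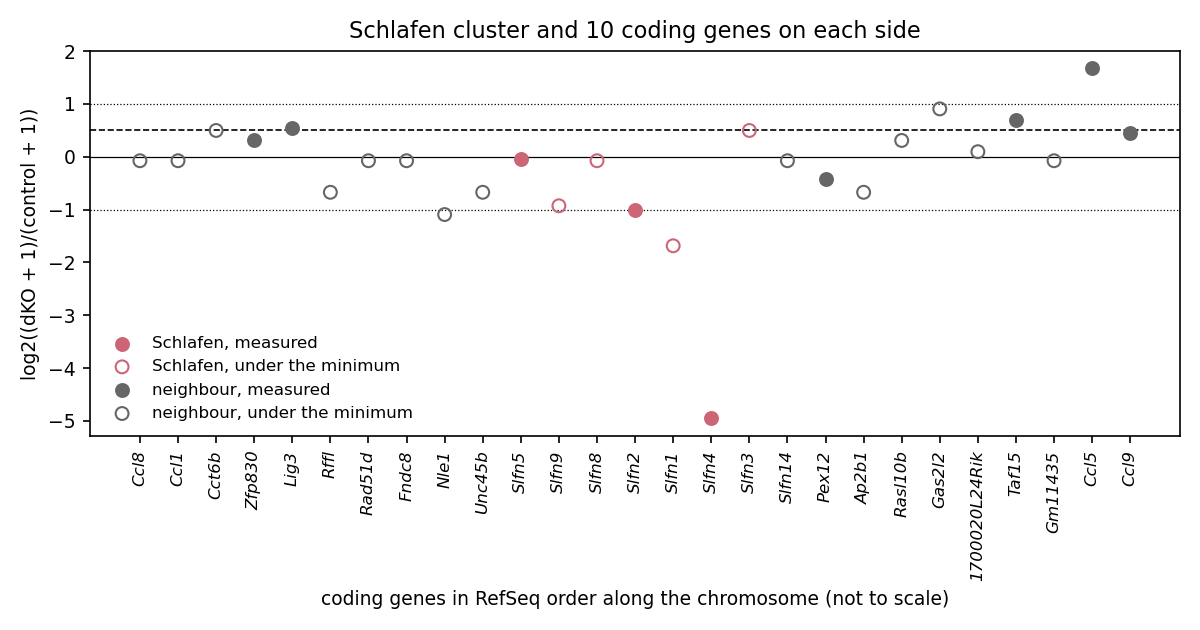
Log2 ratio of the 7 Schlafen genes taken as members (red) and of 10 coding genes on each side (grey, among them Slfn14), in RefSeq order along chromosome 11, without distances. Filled points are measured genes and open points lie under a mean normalised count of 20, where the ratio is mostly set by the pseudocount. Slfn4 at -4.95 stands between Slfn1 and Slfn3, which have at most 4 reads, and the 6 measured neighbours lie above -1.

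Part of the interferon-stimulated genes were lower too, none by as much as Slfn4. Of 40 such genes with a row, 34 were measured, 8 of them (23.5%) were at least 2-fold lower and 0 at least 2-fold higher, against 4.18% and 26.2% of all measured genes. The median log2 ratio was -0.32, against 0.51 for all measured genes, with 21 of 34 below 0. Relative to that median, 13 lay at least 2-fold below and 0 above, against 626 and 711 of all measured genes. The list was drawn up with earlier results of these libraries known, and is no independent evidence of a direction. Nearest to Slfn4 was Oas2, a sensor of double-stranded RNA, with 167 control and 14 dKO-labelled reads (13.2-fold lower, 7.67 to 24.7). Ifi44 had 51 and 13 reads (4.35-fold, 2.33 to 8.72), the ubiquitin-like protease gene Usp18, a brake on interferon signalling, 222 and 66 (3.73-fold, 2.82 to 4.99), and Trim30a 142 and 42 (3.75-fold, 2.64 to 5.43). Other members did not move in that direction: Ifit1, which encodes a protein that binds viral RNA, had 346 and 532 reads and a log2 ratio of 0.47, and Ifit3 had 18 and 36.

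Of 9 measured receptor, kinase and factor genes that transmit the interferon signal, 0 were at least 2-fold lower and 0 higher (4.18% and 26.2% of all measured genes), and the median log2 ratio was -0.09. This depended on the scaling: 2 were lower with total-count or TMM scaling or with the median of measured genes set to 0, 3 with upper-quartile scaling and 1 with the added read taken off or with no filter. The transcription factor gene Stat2 was closest to the threshold, with 203 and 112 reads (2.01-fold lower in reads, 1.59 to 2.56, and -0.995 on the log2 scale with the pseudocount). Ifnlr1, the receptor chain for type III interferon, to which gut epithelium responds, had 142 and 88 reads (1.79-fold lower, 1.36 to 2.36). Jak1 had 224 and 187 reads and Ifngr2 335 and 477. The interferon genes Ifnb1, Ifng, Ifnl2 and Ifnl3 were listed at 0 in both libraries, and so were Irf9 and Socs1. A further list held sensors of microbial products, which induce Slfn4 in macrophages, and signalling genes downstream of them. Of its 20 genes 8 were measured, with 0 lower and 0 higher (4.18% and 26.2% of all measured genes). The median of 0.12 became -0.17, -0.56, -0.39 and -0.39 with total-count, upper-quartile, TMM and median scaling. Of the sensors only Tlr3 and the co-receptor gene Cd14 (21 and 26 reads) were measured. Most sensors were near 0, such as Tlr2 (2 and 5 reads), Tlr4 (1 and 2) and Nod2 (4 and 2), so these values describe mainly the downstream genes. Ticam1, the adaptor of Tlr3, had 129 and 228 reads (1.59-fold higher, 1.28 to 1.99), Relb 184 and 265, Tlr3 18 and 33, and Nfkb1 83 and 71.

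**Figure D4:**
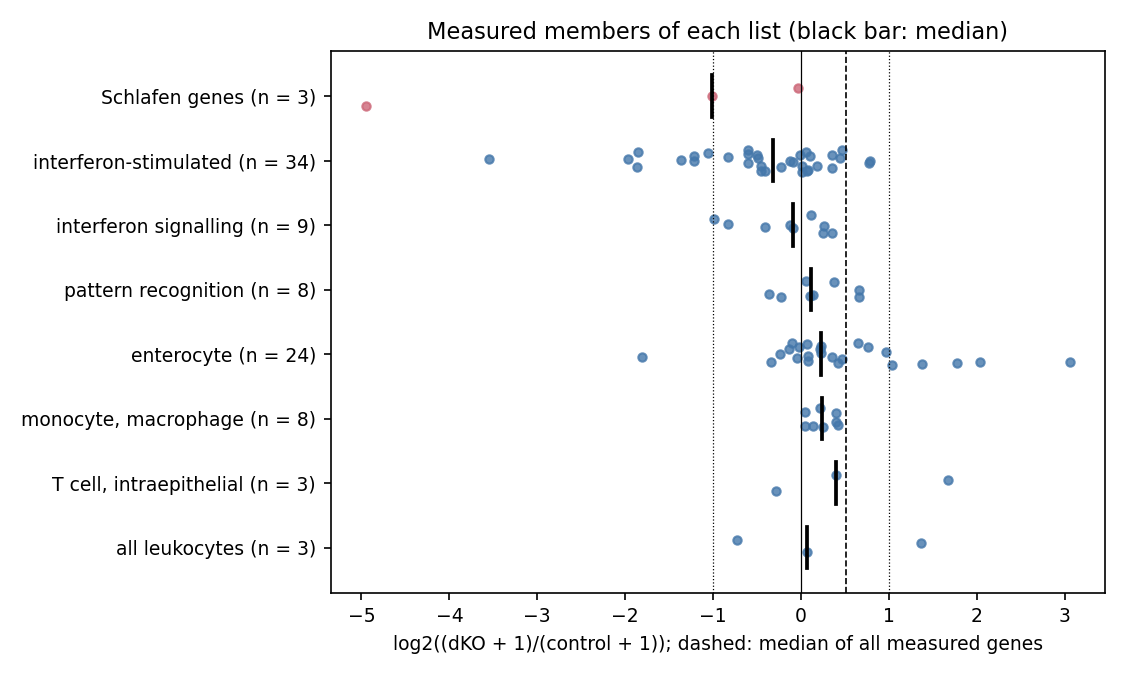
Log2 ratio of the measured members of each list (points, spread vertically for legibility) with the list's median (black bar), the median of all measured genes (dashed, 0.51) and 2-fold (dotted). Schlafen genes are red. Slfn4 at -4.95 lies below all 34 interferon-stimulated genes, whose lowest is Oas2 at -3.55, while the 8 macrophage markers lie between 0.04 and 0.42.

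Schlafen genes are expressed in leukocytes as well as in epithelium, so the cell markers of the villus are given beside them. Monocyte and macrophage markers (16 genes) had 319 control and 423 dKO-labelled reads, a scaled ratio of 1.20 (1.03 to 1.39). Of 8 measured, 0 were lower and 0 higher (4.18% and 26.2% of all measured genes). Among them the complement gene C1qa had 66 and 97 reads, Lyz2 48 and 64, the fractalkine receptor gene Cx3cr1 37 and 55, and C1qc 34 and 39, while Ms4a7 was at 0 in both. Pan-leukocyte markers (8 genes) had 240 and 246 reads, a ratio of 0.924 (0.770 to 1.11), with Rac2 at 115 and 76, Laptm5 at 77 and 90, Coro1a at 18 and 55 and Cd52 at 17 and 13. The defining leukocyte gene Ptprc and also Lcp1 were listed at 0 in both. These ratios hold for the deposited size factors. All 8 measured macrophage markers lay above 0 (0.04 to 0.42) but below the median of all measured genes, 0.51. Their median of 0.24 became -0.05, -0.45, -0.26 and -0.27 with total-count, upper-quartile, TMM and median scaling, with 1 marker at least 2-fold lower under upper-quartile scaling. The leukocyte median of 0.07 became -0.22, -0.61, -0.44 and -0.44.

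Neutrophil markers (11 genes) had 74 and 56 reads, a ratio of 0.682 (0.473 to 0.978), led by Cxcr2 (33 and 24), Ltf (34 and 9), Mmp9 (0 and 18) and S100a8 (4 and 4). Elane, Camp, Ngp and Mmp8 were at 0 in both libraries and S100a9 had 1 and 0 reads. Of 2 measured neutrophil genes, Ltf was lower and 0 were higher (4.18% and 26.2% of all measured genes). Both were lower with upper-quartile, TMM or median scaling. T cell and intraepithelial lymphocyte markers (19 genes) had 138 and 278 reads, a ratio of 1.82 (1.48 to 2.24) with the deposited size factors. Among them Gzma had 64 and 94 reads, Gzmb 9 and 30 and Cd7 20 and 18, while Cd5, Lck and Cd160 were at 0. Only 3 were measured, with 0 lower and 1 higher (4.18% and 26.2% of all measured genes). The higher gene was Ccl5 (15 and 58 reads), which is also the higher gene among the chromosomal neighbours. Their median log2 ratio of 0.39 became 0.10, -0.29, -0.12 and -0.11 with total-count, upper-quartile, TMM and median scaling. B and plasma cell markers had 40 and 110 reads, led by Igj (29 and 82), Cd79a and Cd79b (1 and 7 each) and Pou2af1 (4 and 2). Dendritic cell markers had 11 and 30, with Itgax at 3 and 11, Siglech at 2 and 9, Batf3 at 3 and 4, Xcr1 at 2 and 3 and Cd209a at 0. The part of changes in these cells in the Slfn2 and Slfn4 differences was not tested.

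The epithelium itself was well represented in both libraries. Enterocyte genes (25 genes) had 25502 and 26778 reads. Of 24 measured, 1 was lower (4.17%) and 5 were higher (20.8%), near the 4.18% and 26.2% of all measured genes. Their median log2 ratio was 0.23 (-0.07 to -0.47 under the 4 other scalings, with 3 or 4 genes higher). The disaccharidase genes Sis (37 and 357 reads) and Lct (184 and 847) and the homeobox gene Cdx1 (64 and 249) were higher, and Apob (6742 and 2133), which encodes the chylomicron protein, was lower. Slfn3, the Schlafen gene linked to enterocyte differentiation, was near 0 in both libraries beside these values. Of proliferation genes 4 were measured, with 0 lower and 1 higher (4.18% and 26.2% of all measured genes). The higher gene was Mki67 (12 and 32 reads, under 2-fold with the 4 other scalings). Ccnd1 had 43 and 91 reads, Pcna 83 and 124 and Mcm7 17 and 23. Goblet cell markers had 5126 and 4033 reads, with Fcgbp at 1872 and 1031, Muc2 at 1155 and 671, Zg16 at 961 and 957 and Tff3 at 535 and 582. Paneth cell markers had 1759 and 3254, with Lyz1 at 738 and 1386, Itln1 at 558 and 976, Mmp7 at 174 and 243 and Ang4 at 94 and 275. Tuft and enteroendocrine markers had 1358 and 2243, with Chgb at 593 and 1192, Chga at 395 and 920, Trpm5 at 189 and 33 and Sst at 62 and 26. Their summed reads were mostly Chgb and Chga. Of 7 measured, 3 were lower and 1 was higher (4.18% and 26.2% of all measured genes), with a median log2 ratio of -0.51. Fibroblast and muscle markers differed most, with 85 and 439 reads (4.66-fold higher, 3.68 to 5.94), among them Col3a1 (8 and 72), Acta2 (3 and 72), Col1a2 (9 and 64) and Tagln (21 and 51). Endothelial markers had 70 and 67 reads, with Tie1 at 48 and 5, Lyve1 at 1 and 19, Tek at 13 and 6 and Esam at 4 and 12. The part of these cell types in the Schlafen values was not tested.

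The genes most like Slfn4 were sought by the log2 ratio alone, over 2 libraries, among named genes with a mean of at least 50. As Slfn4 was the lowest, the 5 nearest are simply the next lowest at that mean: Oas2 (-3.55), the cholesterol exporter gene Abca1 (-3.50, 162 and 14 reads), the beta-adrenergic receptor gene Adrb3 (-3.49, 90 and 7), the acute-phase gene Saa1 (-3.33, 107 and 10) and the ubiquitin-like gene Ubd (-3.13, 219 and 26). All 5 lay at least 1.41 above Slfn4 on the log2 scale, and a likeness over 2 libraries is weak. The unnamed transcript A330023F24Rik, at -4.32, was passed over. Nearer than any of these was Xist, at -4.90, whose mean of 43.6 lies under that minimum and which differs with sex.

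**Figure D5:**
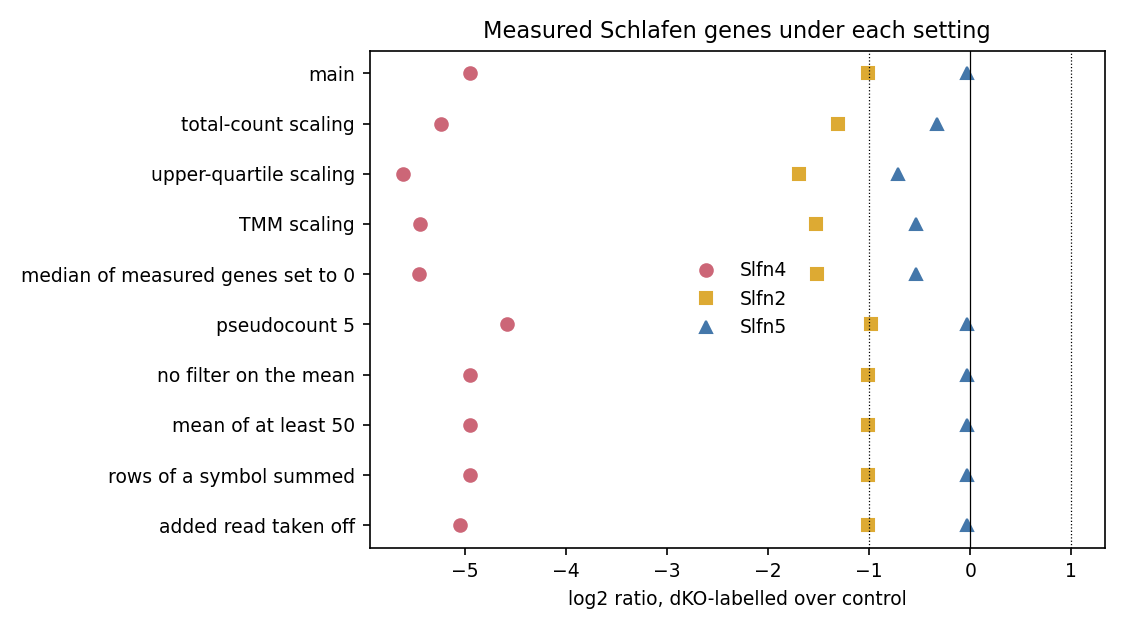
Log2 ratio of Slfn4 (circles), Slfn2 (squares) and Slfn5 (triangles) under the main setting and 9 alternatives, with dotted lines at 2-fold. Slfn4 stays between -5.62 and -4.59, Slfn2 between -1.70 and -0.99 and Slfn5 between -0.71 and -0.03.

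The scaling of the libraries moved all 3 measured members together, as the plot of settings shows. Slfn4 ranged from -5.62 to -4.59 over the 9 alternatives and Slfn5 from -0.71 to -0.03, without reaching 2-fold. Slfn2 ranged from -1.70 with upper-quartile scaling to -0.99 with a pseudocount of 5, where it was no longer called lower. Slfn4 had the lowest ratio under all of them except when the added read was taken off, where it was second lowest.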

How the data were processed

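Messenger RNA libraries of villi (1 per genotype) were analysed from 1 table for the series. The submitters' processing notes name TopHat, DESeq and mm9. Their versions, the counter and strand use were not given in the sources used here. Each deposited signal column holds normalised counts (baseMean, per the file headers) for 22040 RefSeq rows. All values (100%, within 0.001) were whole multiples of the smallest value of their column, and none was 0, so reads were recovered as multiples minus 1, an inference that 1 read had been added. The authors' ratio (fold change) column is dKO over control signal, and the deposited log2 column is its logarithm. The deposited p-value column is unadjusted.

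Symbols with several rows (1171) kept the row with the highest mean. Of 33 symbols that were dates, 32 were resolved through RefSeq (GRCm38.p6). Lengths, coding sequences and 50-base stretches came from GENCODE M21, which differs from mm9. The planned protein comparison was replaced by coding sequences, since no protein table was used here.

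The measure was log2((dKO + 1)/(control + 1)), for genes with a mean of 20 or more (measured), and calls were made by size at 2-fold with no test. Folds in the text divide the read ratio by the size-factor ratio (1.11), with Clopper-Pearson intervals; single counts have Poisson intervals. The members and lists were chosen with earlier results of these data known. Named genes were the members, other Schlafen genes, the targeted genes, up to 4 measured genes per list by absolute log2 ratio, up to 4 per cell marker list by reads, and the 5 nearest to Slfn4, beside genes named for being near 0 or, like Ifit1, Ifit3 and Xist, after their values were seen. Functions were tested on simulated data. Tools were Python 3.11.15, pandas 2.3.3, numpy 2.4.6, scipy 1.17.1, matplotlib 3.10.9, Biopython 1.88, R 4.3.3 and edgeR 4.0.16 (TMM and upper quartile).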

Additional observations from a re-analysis of the deposited data

How the results depend on the processing

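No replicate could be left out. No paired analysis was possible because a single library stood for each genotype. Total-count, upper-quartile and TMM scaling shift all ratios by -0.30, -0.69 and -0.52 on the log2 scale. The log2 ratio of the summed Schlafen reads, -2.01, became -2.31, -2.71 and -2.53 under these, -2.52 with the median of measured genes set to 0, and -0.81 without Slfn4. Of the measured Schlafen genes, 1 and not 2 was lower with a pseudocount of 5, with the counting interval beyond 2-fold and by the authors' unadjusted p-values. With no filter 3 were, since Slfn1 passed.

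Measured genes lower and higher numbered 251 and 1574. Total-count scaling gave 436 and 972, upper-quartile scaling 903 and 477, TMM 652 and 664, and a median of 0 gave 626 and 711. Dropping the filter gave 892 and 3704 and a minimum mean of 50 gave 164 and 761. There were 104 and 627 by the interval, 698 and 3013 by an exact binomial test on reads (Benjamini-Hochberg), which compares libraries and not conditions, and 19 and 104 by the authors' p-values. Interferon-stimulated genes kept a median below 0: -0.61, -1.01, -0.83 and -0.83 under the 4 scalings in the order above and -0.094 with no filter, against -0.32. Upper-quartile scaling put 17 of them lower, TMM 14 and a median of 0 put 13, against 8, and with no filter 1 was higher. The endothelial median turned from -2.97, the value of 1 gene, to 0.50 with no filter. Uncalled medians near 0 also changed sign: under the 4 scalings those of pattern recognition, enterocyte, macrophage and leukocyte genes fell below 0, as given beside them. The medians of T cell markers and of the chromosomal neighbours did so under upper-quartile, TMM and median scaling. Under upper-quartile scaling those of proliferation and Paneth genes became -0.025 and -0.038. The median of tuft and enteroendocrine markers turned from -0.51 to 0.86 with a minimum mean of 50. The interval, binomial and p-value rules and the sum without Slfn4 were chosen after seeing the data. Depth limits Slfn1, Slfn3, Slfn8 and Slfn9.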

Other observations

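Counts of genes with several rows in the deposited table were set beside those of genes with 1 row. Of 1171 symbols with several rows, 14.5% were measured, against 29.8% of 19551 symbols with 1 row, and the median over both libraries was 3 reads against 5. Fewer of them were at 0 in both libraries, 18.4% against 27.6%. All 7 Schlafen genes had 1 row. Several signalling genes near 0 beside them had more, such as Irf1 (2 rows, 3 and 1 reads) and Nfkb2 (3 rows, 1 and 2 reads), whereas Irf9 and Ptprc, at 0 in both, had 1 row. The part of the number of rows in these counts was not tested.

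Among the measured genes of lowest ratio, outside the rule for named genes and picked after their values were seen, were Nlrc5, which activates class I antigen presentation genes, with 43 control reads and 1 dKO-labelled read, and Trim10 with 39 and 1.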
